A study of Mus musculus with 2 samples.

Results

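The heterogeneous nuclear ribonucleoprotein (hnRNP) genes examined here were Hnrnpa1, Hnrnpa2b1, Hnrnpa3, Hnrnpc, Hnrnpd, Hnrnpdl, Hnrnpf, Hnrnph1, Hnrnpk and Hnrnpl. They were chosen by symbol, and all 10 were found among 20830 genes of the gene count table of the smaller library and among 26997 genes of that of the larger one. The cells were muscle stem cells (MuSCs) of Pax7creERT2R26-eYFPfl/fl mice on a C57BL6 background. In these mice tamoxifen (20 mg/ml, 5 days of injections at 3 months of age) turns on YFP in cells that use the Pax7 promoter, and YFP was the marker of the sort. Quiescent MuSCs came from uninjured hindlimb muscle, taken 2 weeks after the last tamoxifen dose. Activated MuSCs came from muscle taken 72 h after an injection of 40 uL of 1.2% barium chloride. Both were run in 1 capture with 10x v2 chemistry, which was divided into an aliquot of 10% (Lib10, short and nanopore long reads) and an aliquot of 90% (Lib90, short reads), and no label says whether a barcode was a quiescent or an activated cell.

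hnRNP proteins bind nascent transcripts in the nucleus, and they take part in splice site choice, RNA export, stability and translation. Several of these genes are known to limit their own level through transcripts that keep an intron or that carry a stop codon well ahead of a later splice junction. The second layout can mark an RNA for nonsense-mediated decay (NMD). Quiescent MuSCs are small cells with little RNA, and activated MuSCs grow, make more RNA and enter the cell cycle. A unique molecular identifier (UMI) tags each captured molecule. Long-read UMI counts also depend on transcript length, since reads that covered little of a transcript were left out by the authors.

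In place of the missing labels, barcodes of 3000 to 15000 short-read UMIs with 0 UMIs of the cycle genes Rrm2, Top2a and Cdk1 (shallow barcodes) were compared with barcodes of at least 20000 UMIs (deep barcodes). Lib10 held 157 shallow and 79 deep barcodes, and Lib90 held 1243 and 606. The median depth was 6729 against 65499 UMIs in Lib10 and 4680 against 47106 UMIs in Lib90. The 6 quiescence markers (Calcr, Chrdl2, Spry1, Heyl, Notch3 and Cd34) summed to 493 UMIs per 1000000 UMIs of the class (CPM) in shallow and 29.6 CPM in deep barcodes of Lib10, and to 589 and 33.2 CPM in Lib90. Myod1, a gene of activated myoblasts, was also higher in shallow barcodes, at 1106 against 185 CPM in Lib10 and 1069 against 213 CPM in Lib90. The shallow class therefore cannot be read as quiescent cells alone. The rest of the 6 activation markers (Myog, Mki67, Ccnb1, Mcm3 and Pcna) were lower in shallow than in deep barcodes of both libraries. In Lib10 Myog was at 1.79 and 33.1 CPM, Mki67 at 0.897 and 30.8 CPM and Ccnb1 at 0.897 and 46.3 CPM. Mcm3 was at 2.69 and 31 CPM and Pcna at 19.7 and 76.5 CPM. The rule for shallow barcodes leaves out those with UMIs of 3 cycle genes, which bears on the cell cycle genes among these markers. The 6 MuSC markers Pax7, Des, Itga7, Cdh15, Vcam1 and Myf5 summed to 670.3 and 514 CPM in Lib10 and to 824 and 630.3 CPM in Lib90, and they went both ways. In Lib10 Myf5 was at 190 and 15.1 CPM, Vcam1 at 136 and 47.7 CPM and Pax7 at 27.8 and 12.2 CPM, while Des was at 253 and 323 CPM, Itga7 at 34.1 and 58.4 CPM and Cdh15 at 28.7 and 57.3 CPM. The 4 immediate-early genes Fos, Jun, Egr1 and Atf3 summed to 887 and 239 CPM in Lib10, and the nuclear RNA Malat1 stood at 28776 and 3406 CPM. The 5 immune markers (Cd52, Ptprc, Cd68, Tyrobp and Lyz2) summed to 96.0 and 62.4 CPM in Lib10 and to 203 CPM in shallow but 3.31 CPM in deep barcodes of Lib90, where Lyz2 alone was at 112 and 0.971 CPM. At least 2 of them were found in 0.637% of shallow and 2.53% of deep barcodes of Lib10 and in 0.644% and 0.495% of those of Lib90. The part of depth, of immune cells, of RNA released by dissociation and of cell stage in the differences below was not tested, and these cannot be told apart by the design.

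The libraries cannot be taken as separate sets of cells. All 236 Lib10 barcodes of both classes were also listed in Lib90, and 232 of them were closest, over all genes, to their own barcode among these barcodes in Lib90 (median Pearson correlation across genes 0.934 with the own barcode and 0.666 with the others). Whether the Lib90 counts of these barcodes come from the same molecules or reads as those of Lib10 was not tested, so their agreement is no independent repeat. Lib90 values are therefore given also without barcodes of at least 1000 UMIs in Lib10 (the cells of Lib10), which left 1077 shallow and 507 deep barcodes. Of the shallow barcodes of Lib90, 243 were listed in Lib10 and 166 held at least 1000 UMIs there. Of the deep ones, 207 were listed and 99 held that many. Some barcodes that were kept are thus still listed in Lib10. With 1 capture there is no replicate and no test. Intervals are exact 95% intervals (Poisson for a level, conditional binomial for a ratio of levels, Clopper-Pearson for a share) and cover counting error only.

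Some of the sequences that set isoforms of these genes apart are given first. They were read from Gencode vM21 transcripts on GRCm38 (mm10), 5′ to 3′, with the optional stretch in capitals and 20 bases of the neighbouring exons in lower case. Hnrnpa2b1 (chr6:51460932-51469894, minus strand) makes the A2 and B1 proteins, which differ by an exon of 36 bases near the start of the coding sequence (chr6:51467391-51467426).
Hnrnpa2b1 36-base exon: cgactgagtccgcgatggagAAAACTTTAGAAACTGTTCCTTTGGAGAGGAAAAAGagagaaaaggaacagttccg
Hnrnpk (chr13:58391142-58403343, minus strand) has an optional coding exon of 72 bases (chr13:58396188-58396259).
Hnrnpk 72-base exon: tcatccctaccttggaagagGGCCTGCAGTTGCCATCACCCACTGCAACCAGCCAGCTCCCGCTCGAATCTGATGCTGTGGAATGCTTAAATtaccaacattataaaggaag
In Hnrnpl (chr7:28808541-28822266, plus strand) the transcript Hnrnpl-209 keeps 111 bases (chr7:28818533-28818643) that Hnrnpl-201 splices out, and the annotation counts them as coding in Hnrnpl-209.
Hnrnpl 111-base stretch: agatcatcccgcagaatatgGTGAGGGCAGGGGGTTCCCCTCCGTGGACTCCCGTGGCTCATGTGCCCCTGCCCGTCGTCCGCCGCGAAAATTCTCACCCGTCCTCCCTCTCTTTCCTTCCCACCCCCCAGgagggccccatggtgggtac
Each of these stretches is a multiple of 3 bases long. In Hnrnpa1 (chr15:103240432-103246692, plus strand) the transcripts Hnrnpa1-202 and Hnrnpa1-203 share their coding sequence of 960 bases and part after the exon that ends at chr15:103244028. Capitals mark the first 15 bases of the next exon, which starts at chr15:103244256 in Hnrnpa1-202 and at chr15:103246346 in Hnrnpa1-203.
Hnrnpa1-202 junction: attacatacagccagGAAACAAAGCTTAGC
Hnrnpa1-203 junction: attacatacagccagGAAGGAATCTGCTAT
In Hnrnpa1-203, 2 junctions follow the last codon and the last of them lies 93 bases after it, and the annotation gives this transcript the NMD type. In Hnrnpa1-202, 1 junction follows, 17 bases after the last codon.

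The summed level of the 10 genes was higher in deep than in shallow barcodes of both libraries. In Lib10 it was 1307 CPM (1241 to 1376) in shallow and 1585 CPM (1551 to 1620.3) in deep barcodes, a ratio of 1.21 (1.15 to 1.28). In Lib90 it was 1798 and 2275 CPM, a ratio of 1.27 (1.24 to 1.29), and 1868 and 2362 CPM without the cells of Lib10, a ratio of 1.26 (1.24 to 1.29). Long reads of Lib10, which share those barcodes, gave 4503 and 5637 CPM, a ratio of 1.25 (1.22 to 1.29). The median ratio over all genes with a mean of at least 20 CPM was itself 1.15 in both libraries (log2 0.20 in each). Relative to that shift the summed level was 1.06-fold in Lib10 and 1.10-fold in Lib90. Division by the same median brings every ratio between 1 and 1.15 below 1, so scaled ratios below say only where a gene stood against the median.

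At 1.5-fold, Hnrnpa1 and Hnrnpd were higher in deep barcodes of both libraries, and no member was lower. These 2 of 10 compare with 38.6% of 4133 genes called higher in Lib10 and 39.1% of 4414 genes in Lib90, so the members' count did not exceed the background. Of all genes, 25.9% and 25.5% were called lower. The median ratio over the members was 1.15 in Lib10 and 1.21 in Lib90. The same 2 genes passed in Lib90 without the cells of Lib10, where 39.5% of genes were called higher and 25.3% lower. In long reads Hnrnpa1 alone passed, where 36.5% of 5178 genes were called higher and 28.8% lower. At 2-fold, Hnrnpa1 and Hnrnpd passed in Lib10 (27.8% of genes higher and 17.8% lower), and Hnrnpa1 alone in Lib90 (28.3% higher and 18.0% lower).

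**Figure D1:**
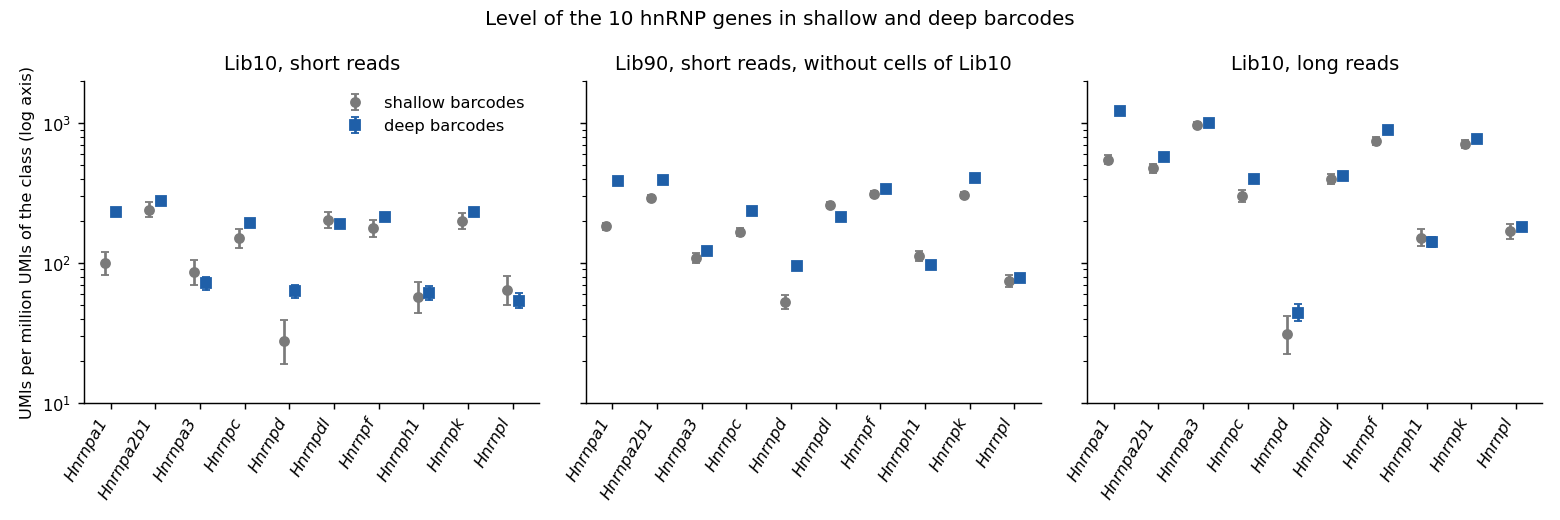
CPM (log axis) for each hnRNP gene, in shallow (grey circles) and deep (blue squares) barcodes of Lib10 short reads, Lib90 short reads without the cells of Lib10, and Lib10 long reads. Bars are exact 95% Poisson intervals. Hnrnpa1 and Hnrnpd show the widest gaps between classes in both short-read panels, and Hnrnpa3 stands higher in long reads (974 CPM in shallow barcodes) than in Lib10 short reads (86.1 CPM).

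The A/B group (Hnrnpa1, Hnrnpa2b1 and Hnrnpa3) codes for proteins with paired RNA recognition motifs and a glycine-rich tail that shuttle between nucleus and cytoplasm and act in splice site choice. Hnrnpa1 stood at 99.6 CPM (81.9 to 119.9, 111 UMIs) in shallow and 233 CPM (219.5 to 246, 1186 UMIs) in deep barcodes of Lib10, and at 171 and 372 CPM in Lib90. Its ratio was 2.34 (1.92 to 2.86) in Lib10, 2.17 (2.04 to 2.31) in Lib90, 2.13 (1.997 to 2.28) without the cells of Lib10 and 2.23 (2.06 to 2.41) in long reads. It had the largest ratio of the members in each of these 4 comparisons. Over single deep barcodes of Lib90 the median was 358 CPM, with quartiles of 263 and 460.1 CPM, and over single shallow barcodes it was 113 CPM, with quartiles of 0 and 267 CPM. The share of barcodes with a Hnrnpa1 UMI was 47.1% in shallow and 98.7% in deep barcodes of Lib10, and after each barcode was thinned to 3000 UMIs it was 28.0% and 41.8%.

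Hnrnpa2b1 was short of 1.5-fold and went from 241 to 276 CPM in Lib10 (ratio 1.14, 1.00 to 1.31) and from 286 to 378 CPM in Lib90 (ratio 1.32, 1.26 to 1.39). Relative to the median of all genes it was at 0.996 in Lib10 and 1.15 in Lib90, that is, at the median in Lib10 and above it in Lib90. Hnrnpa3 was at 86.1 and 71.6 CPM in Lib10 (ratio 0.831, 0.662 to 1.05) and at 105 and 115 CPM in Lib90 (ratio 1.09, 1.00 to 1.18), and its scaled ratio in Lib90 was 0.947, below the median of all genes. Short-read counts of this gene are uncertain. In Gencode vM21, 36 other genes, 35 of them pseudogenes, share a stretch of at least 200 bases with it at 95% identity or more. Those listed in Lib90 held 7906 UMIs, against 4406 UMIs of Hnrnpa3 itself, and 4161 of them were on the pseudogene Gm6793. With these copies added, Hnrnpa3 came to 344 and 300.4 CPM in Lib10 (ratio 0.874, 0.781 to 0.980) and to 279 and 323 CPM in Lib90 (ratio 1.16, 1.10 to 1.22). For Hnrnpa1, copies held 11.1% as many UMIs as the gene in Lib90 and 22.0% in Lib10, and its ratio with them added was 1.85 and 1.97.

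Hnrnpc codes for a protein that stays in the nucleus and binds runs of U. It went from 151 to 193 CPM in Lib10 (ratio 1.28, 1.09 to 1.52) and from 166 to 233 CPM in Lib90 (ratio 1.40, 1.31 to 1.49), short of 1.5-fold in both. Its pseudogene copy Gm12696 held 1017 UMIs in Lib90, where Hnrnpc held 8456.

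Hnrnpd (AUF1) codes for a protein that binds AU-rich elements and acts in mRNA decay, and Hnrnpdl codes for its close relative. Both lie on chromosome 5. Hnrnpd was at 27.8 CPM (18.9 to 39.5, 31 UMIs) in shallow and 63.0 CPM (56.3 to 70.2, 321 UMIs) in deep barcodes of Lib10, and at 50.1 and 89.4 CPM in Lib90. The ratio of Hnrnpd was 2.26 (1.56 to 3.39) in Lib10 and 1.79 (1.59 to 2.01) in Lib90. In long reads it was 1.42 (1.02 to 2.03) from 43 and 205 UMIs, which is below 1.5. Hnrnpdl was at 203 and 192 CPM in Lib10 (ratio 0.945, 0.817 to 1.10) and at 251 and 212 CPM in Lib90 (ratio 0.842, 0.797 to 0.890). Without the cells of Lib10 the ratio of Hnrnpdl was 0.815 (0.769 to 0.866), and in long reads it was 1.05 (0.955 to 1.16). The intervals of the ratios of Hnrnpd and Hnrnpdl did not overlap in either short-read library, and they did in long reads.

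Hnrnpf and Hnrnph1 code for proteins that bind runs of G near splice sites and polyadenylation sites. Hnrnpf was at 178 and 213 CPM in Lib10 (ratio 1.20, 1.03 to 1.40) and at 298 and 320.4 CPM in Lib90 (ratio 1.07, 1.02 to 1.13). Relative to the median of all genes it was at 1.05 in Lib10 and 0.933 in Lib90. Hnrnph1 was at 57.4 and 61.0 CPM in Lib10 (ratio 1.06, 0.809 to 1.41) and at 105 and 93.9 CPM in Lib90 (ratio 0.894, 0.821 to 0.973). With shallow barcodes of 5000 to 15000 UMIs the Lib90 ratio of Hnrnph1 was 1.07 and turned to the other side of 1.

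Hnrnpk, whose protein binds C-rich RNA and DNA through KH domains, was at 199 and 230.4 CPM in Lib10 (ratio 1.16, 1.00 to 1.34) and at 292 and 387 CPM in Lib90 (ratio 1.32, 1.26 to 1.39). Hnrnpl, whose protein binds CA repeats, was at 64.6 and 53.9 CPM in Lib10 (ratio 0.835, 0.642 to 1.10) and at 71.9 and 76.1 CPM in Lib90 (ratio 1.06, 0.957 to 1.17). The intervals of both Hnrnpl ratios hold 1. Relative to the median of all genes, Hnrnph1 in Lib10 (0.927) and Hnrnpl in Lib90 (0.920) also stood below it, though their ratios themselves were 1.06.

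**Figure D2:**
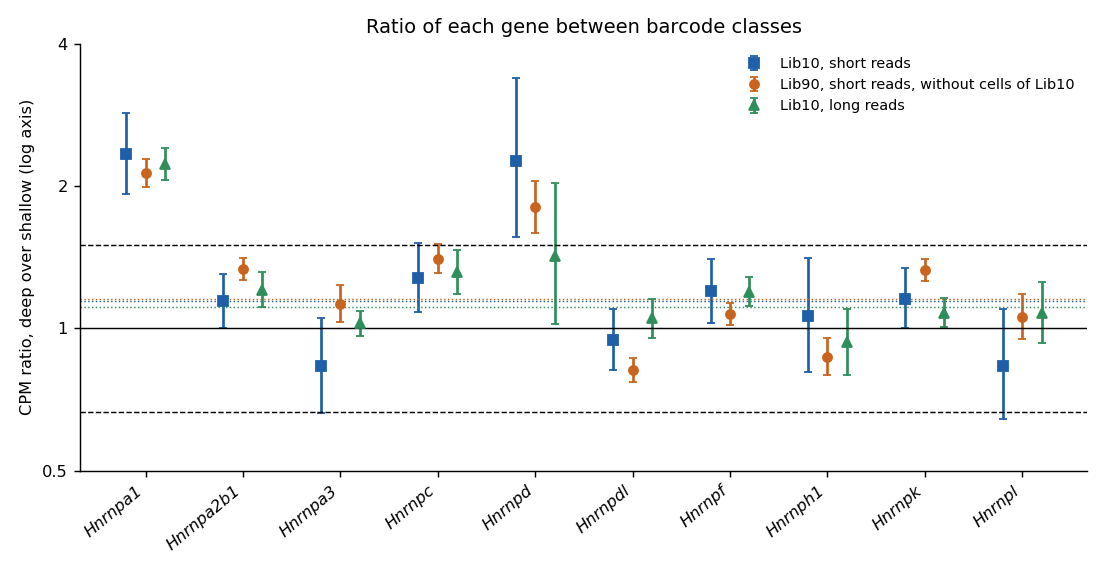
Ratio of the CPM in deep over shallow barcodes (log axis) for each gene, in Lib10 short reads (blue squares), Lib90 short reads without the cells of Lib10 (orange circles) and Lib10 long reads (green triangles). Bars are exact 95% intervals, dashed lines mark 1.5-fold, and dotted lines mark the median ratio over all genes of each comparison (1.15, 1.16 and 1.11). Hnrnpa1 lies above the upper dashed line in all 3 comparisons, and Hnrnpd in both short-read ones.

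Levels differed between the libraries as well. Deep barcodes summed to 1585 CPM in Lib10 and to 2362 CPM in Lib90 without the cells of Lib10. In the 76 barcodes that were deep in both tables, the Lib90 level over the Lib10 level ranged from 1.01 for Hnrnpd to 1.20 for Hnrnpk. The same Hnrnpk values were 231 CPM in Lib10 and 278 CPM in Lib90 for these cells. In deep barcodes of Lib90 without the cells of Lib10 the Hnrnpk level was 405 CPM. Levels of the libraries were therefore not pooled.

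Within the deep class the level was higher where the cycle genes were detected. In deep barcodes with UMIs of all 3 of Rrm2, Top2a and Cdk1, the 10 genes summed to 1755 CPM (1704 to 1807, 33 barcodes) in Lib10 and 2494 CPM (2470 to 2518, 292 barcodes) in Lib90. In deep barcodes without any such UMI they summed to 1129 CPM (1009 to 1261, 9 barcodes) and 1564 CPM (1496 to 1635, 35 barcodes), which was below the shallow class, at ratios to it of 0.864 and 0.870. Without the cells of Lib10, the 30 such barcodes of Lib90 summed to 1589 CPM (1515 to 1666). Hnrnpa1 stood above the shallow class there in both libraries, with 189 CPM in Lib10 and 262 CPM in Lib90, ratios of 1.90 and 1.53. In Lib10 Hnrnpd (32.1 against 27.8 CPM), Hnrnpf (189 against 178 CPM) and Hnrnpl (71.3 against 64.6 CPM) were above it too, with intervals that overlap those of the shallow class, and in Lib90 these 3 were below it. Hnrnpd stood at 32.1 and 39.9 CPM there, against 78.2 and 101 CPM in deep barcodes with all 3 cycle genes. Hnrnpdl stood at 118 and 143 CPM, against 213 and 235 CPM. Barcodes in the depth range of the shallow class that did hold cycle UMIs summed to 1329 CPM (1155 to 1523, 21 barcodes) in Lib10 and 1881 CPM (1798 to 1967, 148 barcodes) in Lib90, with intervals that overlap those of the shallow class.

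The deep barcodes without cycle UMIs differed in other ways too. Their median depth was 30859 UMIs in Lib10 and 36428 in Lib90, and Myog, a gene of differentiating myoblasts, was at 292 and 484 CPM, against 33.1 and 74.6 CPM in the whole deep class. In Lib10, 1 of the 9 held at least 2 immune markers, and Tyrobp and Lyz2 stood at 460 and 481 CPM in these 9. In Lib90, 0 of the 35 did, and Lyz2 had 0 UMIs. At least 2 MuSC markers were held by 6 of the 9 in Lib10 and 34 of the 35 in Lib90. In the whole deep class it was 94.9% and 98.5% of barcodes. The part of depth and of differentiation in this split was not tested.

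Within the shallow class the summed level varied little with depth in Lib90, while single members could vary. Over shallow barcodes of Lib90 without the cells of Lib10, the sum was 1856 CPM at 3000 to 5000 UMIs, 1875 CPM at 5000 to 10000 and 1904 CPM at 10000 to 15000, with intervals that overlap. The 34 barcodes between 15000 and 20000 UMIs stood at 2305 CPM (2184 to 2432), near the 2256 to 2388 CPM of the 3 deep ranges. In Lib10 the lowest of the deep ranges (20000 to 40000 UMIs) stood at 1362 CPM (1266 to 1463), within the range of its shallow ones. Over the shallow ranges of Lib90 without the cells of Lib10, Hnrnpa1 rose from 155 CPM (141 to 171) to 200 (182 to 219) and 272 (221 to 331). Hnrnph1 fell from 127 CPM (114 to 141) to 97.8 (85.6 to 111) and 87.9 (60.2 to 124). For the other members the intervals overlapped. In Lib10 Hnrnpa1 was at 97.6, 111 and 67.7 CPM over these ranges, with no such rise.

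**Figure D3:**
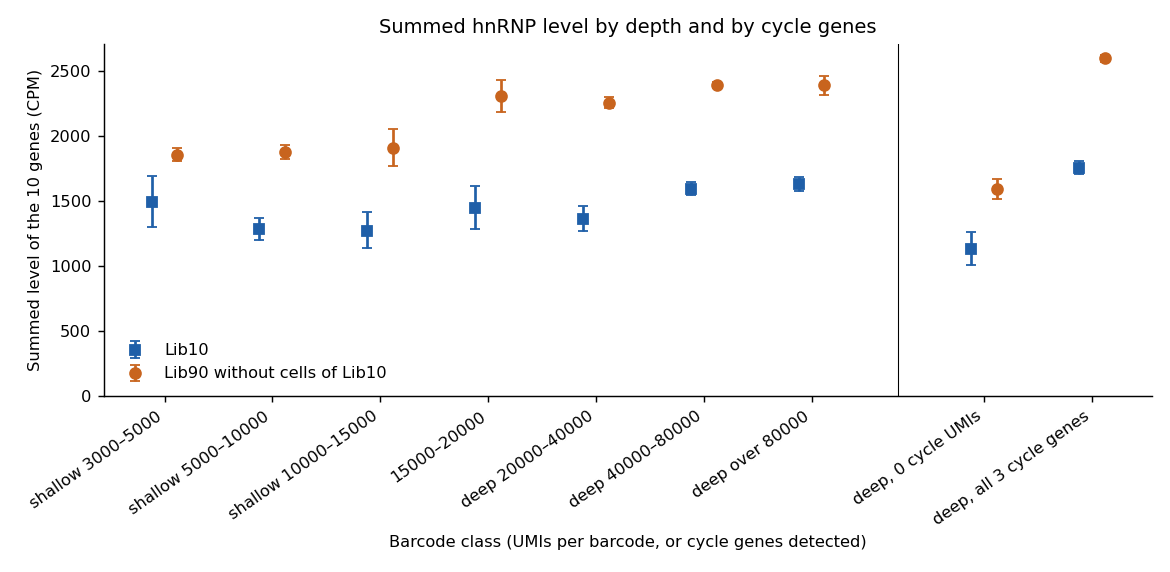
Summed level of the hnRNP genes in CPM (axis from 0) by range of UMIs per barcode and, right of the line, in deep barcodes without and with UMIs of the cycle genes, for Lib10 (blue squares) and Lib90 without the cells of Lib10 (orange circles). Bars are exact 95% Poisson intervals. Deep barcodes with 0 cycle UMIs lie below every range of their own library, and those with all 3 cycle genes above every range.

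Over the 606 deep barcodes of Lib90, the genes whose CPM was most like the summed hnRNP level were Rrm2 (Spearman 0.629), Tuba1b (0.610), Srsf2 (0.605), Eif4a1 (0.604) and Cct6a (0.604), out of 2327 genes with a mean of at least 50 CPM. The correlation of the summed level with UMIs per barcode was 0.097. These barcodes share 1 library, and the values are a description.

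Among 17 other hnRNP and related genes, 16 reached 20 CPM in Lib10 and 17 in Lib90. In Lib10, 5 of 16 were at least 1.5-fold higher and 1 was lower, and in Lib90 4 of 17 were higher and 1 was lower, against the same background of 38.6% and 39.1%. Hnrnpab went from 145 to 263 CPM in Lib10 (ratio 1.81, 1.53 to 2.14) and from 155 to 315 CPM in Lib90 (ratio 2.03, 1.90 to 2.17). Hnrnpa0 had ratios of 2.14 (1.35 to 3.58) and 2.03 (1.73 to 2.40), and Hnrnpm had ratios of 1.61 (1.24 to 2.12) and 1.84 (1.66 to 2.04). Hnrnph3, a relative of Hnrnph1 and Hnrnpf, was lower in deep barcodes, from 46.7 CPM in shallow barcodes of Lib10 (ratio 0.643, 0.467 to 0.899) and from 69.6 to 28.9 CPM in Lib90 (ratio 0.416, 0.370 to 0.467). Raly and Hnrnpul2 passed in Lib10 and not in Lib90, and Hnrnpul1 in Lib90 and not in Lib10. In long reads the ratio of Hnrnpab was 1.45 (1.28 to 1.64), that of Hnrnpm 1.32 (1.12 to 1.57) and that of Hnrnph3 0.705 (0.569 to 0.879), none past 1.5-fold.

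Long reads gave the isoforms. The 10 genes had 234 counted isoforms, of which 28 carry the name of a reference transcript, and these held 6226 UMIs in the 157 shallow and 26088 UMIs in the 79 deep barcodes of Lib10. Of the 206 isoforms without a reference name, 99 appear by name in the deposited annotation, and for 49 of these the UMIs outnumber the supporting reads listed there. Such an excess also occurs among reference-named isoforms. Hnrnpa2b1-204 had 902 UMIs in deep barcodes alone against 660 supporting reads, and Hnrnpa2b1-203 had 501 against 175. Exon structures were taken only from reference-named isoforms, because their structure is known from the reference. The share of the gene's UMIs on reference-named isoforms differed widely. It was 79.4% in shallow and 82.3% in deep barcodes for Hnrnpa1, 59.97% and 67.5% for Hnrnpa2b1, 11.7% and 7.42% for Hnrnpa3, and 0 of 43 and 0 of 205 UMIs for Hnrnpd.

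At 20 points no member had a shifted isoform share. Of the 9 members with at least 50 UMIs in each class (all but Hnrnpd), 0 had an isoform whose share differed by 20 percentage points, against 17.3% of 3265 genes. At 10 points it was 3 of 9 (Hnrnpa1, Hnrnpf and Hnrnpl), against 53.5% of genes. Over reference-named isoforms alone, 1 of 7 members (Hnrnpl) passed 20 points, against 5.65% of 1116 genes. The genes compared differ in their number of UMIs, and the part of counting error in the background was not tested.

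**Figure D4:**
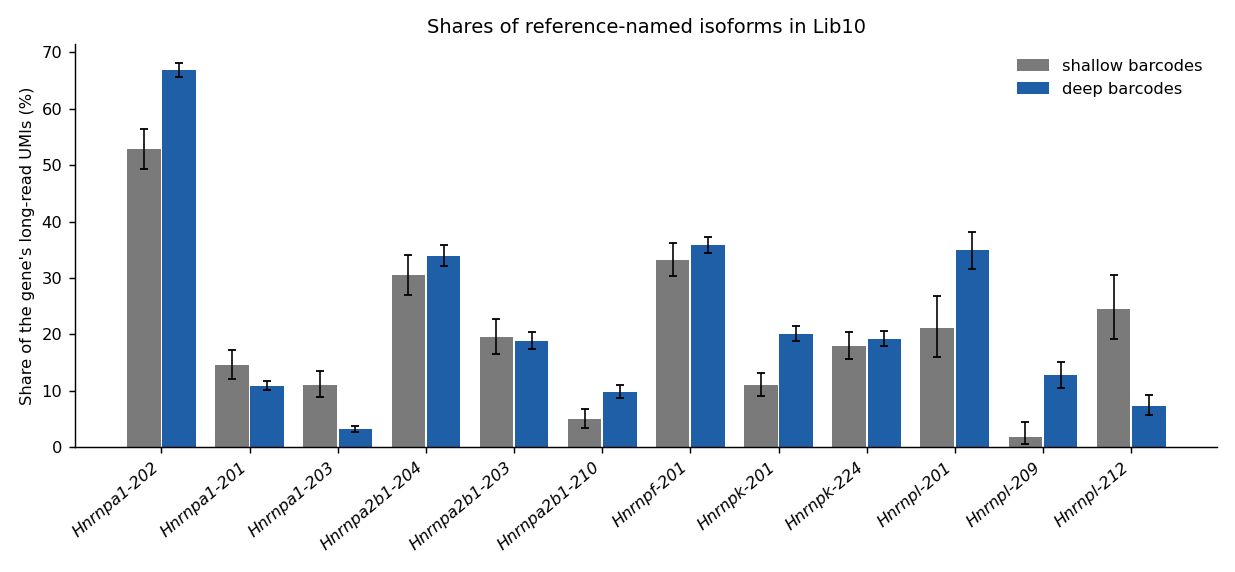
Share (%) of the gene's long-read UMIs on 12 reference-named isoforms in shallow (grey) and deep (blue) barcodes of Lib10, with exact 95% Clopper-Pearson intervals. Hnrnpa1-203 and Hnrnpl-212, which are typed as NMD and retained intron, hold smaller shares in deep barcodes (3.15% and 7.24%) than in shallow ones (10.9% and 24.5%).

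In Hnrnpa1, Hnrnpa1-202 held 52.9% (49.3 to 56.5) of 758 UMIs in shallow and 66.9% (65.6 to 68.1) of 5652 UMIs in deep barcodes. Hnrnpa1-201 held 14.5% (12.1 to 17.2) and 10.8% (10.0 to 11.7). The NMD transcript Hnrnpa1-203 held 10.9% (8.82 to 13.4) and 3.15% (2.71 to 3.64). Its UMIs came from 35 shallow and 47 deep barcodes, with at most 7 and 17 UMIs in 1 barcode. In shallow barcodes below and above 7000 UMIs the share of Hnrnpa1-203 was 11.1% and 10.9%, and in deep barcodes below and above 65000 UMIs it was 4.99% and 2.61%. In deep barcodes without cycle UMIs it was 3.82% (2.05 to 6.45, 13 of 340 UMIs), and in those with all 3 cycle genes 2.69% (2.15 to 3.31).

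In Hnrnpl the retained-intron transcript Hnrnpl-212 held 24.5% (19.1 to 30.5) of 233 UMIs in shallow and 7.24% (5.58 to 9.20) of 843 UMIs in deep barcodes. It ends inside the intron that follows exon 6 of Hnrnpl-201, with a last exon of 1657 bases (chr7:28815280-28816936) in place of one of 73 bases. Hnrnpl-201, which has 586 codons, held 21.0% (16.0 to 26.8) and 34.9% (31.7 to 38.2). An isoform without a reference name that starts at chr7:28808808 held 24.0% and 25.6%. The share of Hnrnpl-212 was 31.2% (22.7 to 40.8) in shallow barcodes below 7000 UMIs and 18.5% (12.1 to 26.5) in those above. It came from 18 shallow and 16 deep barcodes, with at most 7 and 9 UMIs in 1 barcode.

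Over reference-named isoforms, transcripts typed as NMD or retained intron held 13.8% (11.1 to 16.8, 83 of 602 UMIs) of Hnrnpa1 in shallow and 3.83% (3.30 to 4.42, 178 of 4649) in deep barcodes. For Hnrnpl it was 49.6% (40.1 to 59.0, 57 of 115) and 12.4% (9.62 to 15.6, 61 of 492). For Hnrnpa2b1 it was 2.54% (10 of 394) and 2.12% (38 of 1794), with intervals that overlap. For the other 6 members with a reference-named isoform, all counted reference-named transcripts are typed as coding. Their 0 UMIs were thus fixed in advance, and no absence of such RNA can be read from them. Over the members together the share was 6.50% (5.53 to 7.59) in shallow and 2.43% (2.15 to 2.73) in deep barcodes. Over all other genes it was 4.32% (4.27 to 4.38) and 2.55% (2.53 to 2.57), in the same direction. A drop of at least 10 points was seen in 1 of 7 members with 50 UMIs in each class (Hnrnpl) and in 4.57% of 1116 genes, and a rise of that size in 0.538%. Of these 7, Hnrnpa3, Hnrnpc, Hnrnpf and Hnrnpk had no such transcript and could not pass. The same holds for any gene of the background without one. Malat1, a nuclear RNA, was 28776 CPM in shallow and 3406 CPM in deep barcodes of Lib10, and the part of nuclear RNA in these shares was not tested.

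The ends of all counted isoforms, named or not, were read from their coordinates, a choice made after the isoform names had been seen. Among 9 members, 1 (Hnrnpl) had a 3′ end whose share differed by 20 points, against 14.0% of 3265 genes. At 10 points it was 4 of 9 (Hnrnpa1, Hnrnpa2b1, Hnrnpdl and Hnrnpl), against 38.6% of genes, so shifts of that size were common among all genes. Ends at chr7:28822239 or within 30 bases of it, the end of the coding Hnrnpl transcripts, made 59.2% (52.6 to 65.6) of Hnrnpl UMIs in shallow and 86.8% (84.4 to 89.0) in deep barcodes. The early ends of Hnrnpl at chr7:28816936 and chr7:28814704 went from 24.9% to 9.13% and from 15.5% to 3.56%. In Hnrnpa1 the end at chr15:103246692 of the NMD transcript went from 16.2% (13.7 to 19.0) to 4.02% (3.52 to 4.56). In Hnrnpa2b1 the end at chr6:51461121 went from 28.3% (24.9 to 31.9) to 12.1% (10.9 to 13.4), and the more proximal end at chr6:51462760 from 66.7% to 82.6%. The Hnrnpa2b1 end at chr6:51461121 is that of Hnrnpa2b1-202, Hnrnpa2b1-207 and Hnrnpa2b1-209, in which 2 junctions follow the last codon. Hnrnpa2b1-201, which alone ends further on, at chr6:51460932, went from 1.37% (0.628 to 2.58) to 2.86% (2.26 to 3.56). In Hnrnpk the early end at chr13:58397982, inside the gene, went from 7.15% (70 of 979 UMIs) to 1.98% (70 of 3540). An oligo(dT) primer can also start on A-rich sequence inside a transcript, and whether these ends are such sites was not tested.

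**Figure D5:**
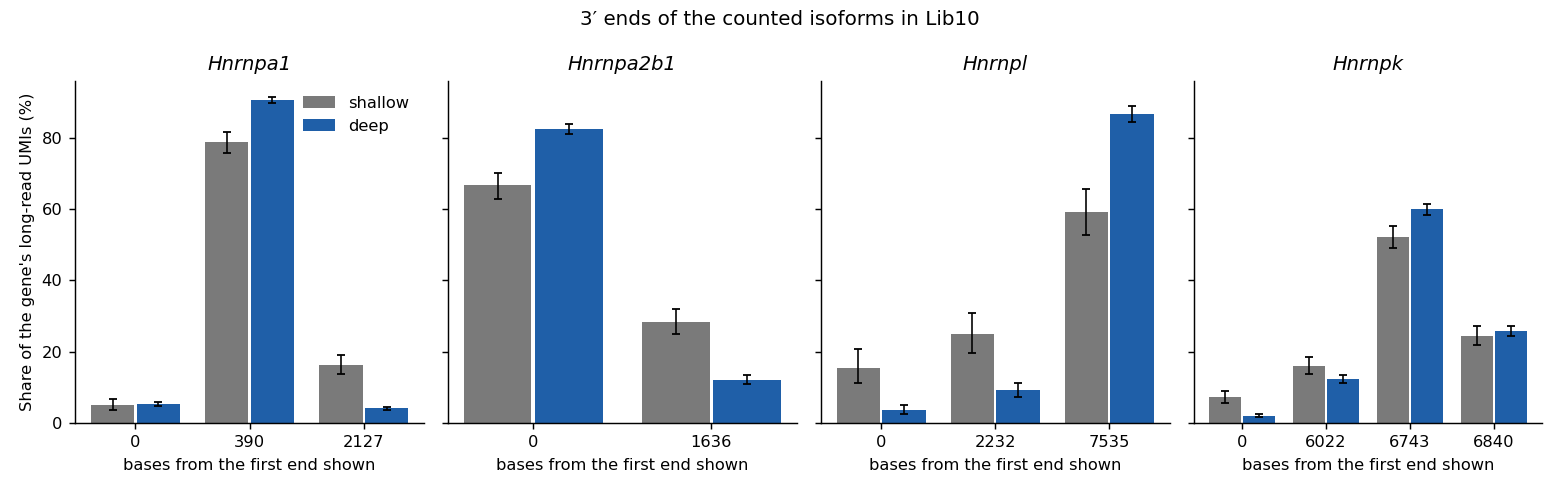
Share (%) of long-read UMIs by 3′ end in shallow (grey) and deep (blue) barcodes of Lib10 for Hnrnpa1, Hnrnpa2b1, Hnrnpl and Hnrnpk, with ends ordered from 5′ to 3′ and labelled by their distance in bases from the first end shown. Bars are exact 95% Clopper-Pearson intervals. Among the ends shown, the last of Hnrnpa1 and of Hnrnpa2b1 and the early ones of Hnrnpl hold smaller shares in deep barcodes, and the last one of Hnrnpl holds a larger one (59.2% against 86.8%).

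The optional exons printed above differed by less than 10 points. The 36-base exon of Hnrnpa2b1 was in 33.8% (29.1 to 38.7, 133 of 394 UMIs) of reference-named UMIs in shallow and 28.8% (26.7 to 31.0, 517 of 1794) in deep barcodes. The 72-base exon of Hnrnpk was in 91.4% (88.3 to 93.9) and 95.8% (94.8 to 96.7). Other optional coding exons were not printed. A 120-base exon of Hnrnpa2b1 was in 88.3% (84.7 to 91.3) in shallow and 80.1% (78.2 to 81.9) in deep barcodes. A 159-base exon of Hnrnpa1, in Hnrnpa1-201, was in 18.3% (15.3 to 21.6) and 13.2% (12.2 to 14.2). A 156-base exon of Hnrnpa1 was in 98.7% and 98.3%. No exon of a member with 50 spanning UMIs in each class differed by 10 points. The stretch of 111 bases that Hnrnpl-209 keeps did, at 6.90% (1.91 to 16.7, 4 of 58 UMIs) in shallow and 24.8% (20.8 to 29.2, 107 of 431) in deep barcodes. Hnrnpl-209 had UMIs in 3 shallow and 30 deep barcodes, and in deep barcodes without cycle UMIs it had 1 of 53 Hnrnpl UMIs.

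For the other members the isoforms were as follows. Several isoforms without a reference name can share a span, and each share given for a span is that of 1 of them unless it is stated otherwise. In Hnrnpa2b1, Hnrnpa2b1-204 held 30.4% in shallow and 33.9% in deep barcodes and Hnrnpa2b1-203 held 19.5% and 18.8%. The largest difference in Hnrnpa2b1 was that of an isoform without a reference name that spans chr6:51461121-51469847, at 11.3% and 3.05%. In Hnrnpk, Hnrnpk-201 went from 10.9% (9.04 to 13.1) to 20.1% (18.8 to 21.4) and Hnrnpk-224 from 17.9% to 19.2%. Their coding lengths are 1389 and 1392 bases.

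In Hnrnpf, Hnrnpf-201 held 33.2% and 35.9%, and an isoform without a reference name that spans chr6:117906790-117925621 held 31.2% (28.4 to 34.2) and 19.7% (18.5 to 20.9). Hnrnpf-201, Hnrnpf-202 and Hnrnpf-209 share a coding length of 1245 bases and differ ahead of it. In Hnrnpc, Hnrnpc-211 held 18.1% and 11.6%, and an isoform that spans chr14:52074452-52103999 held 3.33% and 10.2%. In Hnrnph1, Hnrnph1-201 held 11.4% and 16.3% of only 210 and 657 UMIs, and isoforms without a reference name that span chr11:50377769-50386527 held 7.62% and 9.44% for one and 1.90% (0.521 to 4.80) and 8.98% (6.91 to 11.4) for the one with the largest difference.

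Hnrnpa3 UMIs lay on 26 isoforms. Over both classes the most were on the isoform that spans chr2:75659261-75667292, at 14.7% and 19.1%, and on 1 of the 3 that span chr2:75659261-75666505, at 12.6% and 18.8%. Another of these 3 went from 16.6% (14.6 to 18.7) to 13.8% (12.9 to 14.9), and all isoforms of Hnrnpa3 that end at chr2:75666505 together held 30.4% (27.9 to 32.9) and 34.2% (32.8 to 35.6). In Hnrnpdl the leading isoform spans chr5:100033587-100038910 and held 21.0% and 22.8%. An isoform that spans chr5:100034721-100038910 held 9.78% and 13.4%, and Hnrnpdl-207 held 7.97% (44 UMIs) and 2.11% (41 UMIs). The share of the Hnrnpdl end at chr5:100034721 was 53.3% (49.0 to 57.5) in shallow and 42.6% (40.4 to 44.8) in deep barcodes. In Hnrnpd an isoform that spans chr5:99960998-99978927 held 27.9% of 43 and 20.0% of 205 UMIs and one that spans chr5:99960598-99978927 held 14.0% and 18.5%, with too few UMIs in shallow barcodes for a comparison.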

How the data were processed

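The authors deposited UMI counts per gene (short reads, Lib10 and Lib90) and per isoform (long reads, Lib10) without normalization, and an isoform annotation on mm10. The submitters' processing notes name Cell Ranger 1.3, minimap2 2.17 and GRCm38.p6. Lib10 holds 6772259 UMIs over 1991 barcodes and Lib90 39044129 over 3001. Symbols, positions and transcripts came from Gencode vM21. Counts were summed per class and divided by the total of the class (CPM). Genes with a mean of at least 20 CPM over both classes were compared, and a ratio of 1.5 or a share difference of 20 points counted as a call. With 1 sample per class no test was run. Ratio functions were tested on simulated Poisson counts of 4133 (Lib10) and 4414 (Lib90) genes. Of the 100 genes made 2-fold higher in each, 96.0% and 100% were called. The intervals assume the same Poisson counts and no spread between barcodes was simulated, so this checks the calculation alone. Scrublet (scanpy 1.11.5) marked 8 of 330 and 3 of 2420 barcodes as doublets, which were kept except in an alternative. Copies were found with blastn 2.17.0 (95% identity, 200 bases). Computations used Python 3.11.15 and scipy 1.17.1. The members, lists and thresholds were chosen with earlier results of these data known. The text names all members, other hnRNP genes past 1.5-fold in both libraries, per member the 2 isoforms with most UMIs and the one with the largest share difference, and the 5 genes most like the summed level. Hnrnpl-209, the bins of depth and the cycle split of deep barcodes were chosen after values were seen. Some items are not reported here.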

Additional observations from a re-analysis of the deposited data

How the results depend on the processing

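No paired analysis was possible because no test was run and no replicate exists, so counting error is the precision given here, and it covers neither the animals nor the capture. The Lib10 summed ratio of 1.21 was 1.14 as a mean over barcodes, 1.06 after scaling by the median of all genes and 0.864 with deep barcodes lacking cycle UMIs. The Lib90 ratio of 1.27 was 1.22 without mitochondrial and ribosomal protein genes, 1.10 after that scaling and 0.870 with deep barcodes lacking cycle UMIs. Among member ratios whose interval excludes 1, these last also reversed Hnrnpa2b1 (0.650 in Lib10, 0.882 in Lib90), Hnrnpc (0.898, 0.962) and Hnrnpk (0.841, 0.960) in both libraries. They also reversed Hnrnpa3 (0.727), Hnrnpd (0.796) and Hnrnpf (0.740) in Lib90. In Lib10, 5 members then passed 1.5-fold (Hnrnpa1 higher at 1.90, and Hnrnpa2b1, Hnrnpa3, Hnrnpdl and Hnrnph1 lower). That rests on 9 barcodes, with 12 Hnrnpa3 and 8 Hnrnph1 UMIs. The share of all genes past 1.5-fold in this comparison is not given, so the 5 cannot be set against a background. Scaling, which takes any ratio under 1.15 below 1, did so for Hnrnpa2b1 in Lib10 (0.996), and Hnrnpa3 (0.947) and Hnrnpf (0.933) in Lib90, and shallow barcodes of at least 5000 UMIs reversed Hnrnph1 in Lib90 (1.07). Long reads left 1 member past 1.5-fold (Hnrnpa1) and 3 of the other hnRNP genes instead of 6. At 2-fold, 1 member passed in Lib90, and 1 (Lib10) and 3 (Lib90) of the other genes. With 10 points in place of 20, 3 members had an isoform share difference, with reference-named isoforms alone 1 (Hnrnpl), and with 3′ ends in place of isoforms 1 (Hnrnpl). Over all counted isoforms the members' share on NMD and retained-intron transcripts fell by 1.35 points, where over reference-named isoforms it fell by 4.07. The cause of these changes was not tested. The settings that leave out the cells of Lib10, leave out all barcodes listed in Lib10, keep deep barcodes lacking cycle UMIs, use 3′ ends or add near-identical copies were chosen after seeing the data. Of 162 recomputed isoform share differences 151 stayed within their counting interval and 0 reversed, and of 206 recomputed member ratios 172 stayed within it and 13 reversed by the rule above. Hnrnph1 in Lib10 and Hnrnpl in Lib90, whose intervals hold 1, also crossed 1 under scaling (0.927, 0.920) and with deep barcodes lacking cycle UMIs (0.496, 0.765). Of 40 shares of barcodes with a UMI, 40 moved on thinning to 3000 UMIs. Every barcode of both classes held more than 3000 UMIs, so thinning could not raise a share and the direction was fixed in advance.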
